A study of Mus musculus with 29 samples.

Results

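Forced activation of the Hedgehog pathway was set against removal of the pathway's main transcription factors in mesenchymal cells of the mouse common bile duct. The comparison took the 3 libraries labelled SmoM2 against the 4 libraries labelled Gli2FFGli3FF, chosen by genotype label alone, which are 7 of the 29 libraries of the series. SmoM2 animals carried Pdgfra:CreERT2, a Cre recombinase that tamoxifen switches on and that the Pdgfra gene drives, with the Cre reporter Rosa26:lox-STOP-lox-tdTomato and SmoM2, a form of the Hedgehog transducer Smo that signals without ligand. Gli2FFGli3FF animals carried the same Cre and reporter with floxed alleles of Gli2 and of Gli3, and FF was read as homozygous by convention. The 5 wild type libraries, shown for orientation, came from animals with the Cre and the reporter and no altered Hedgehog gene, although a floxed Smo allele is named in the description given for replicate 5. All animals compared thus expressed the same recombinase, and any allele could be switched only in cells with Pdgfra promoter activity. About 1000 cells were sorted from the bile duct of each animal, and each library was taken as 1 animal. Age, tamoxifen dose, the time after recombination, the sort gate and the exons that are floxed are not given in the labels used here, so the share of cells that recombined is unknown.

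Hedgehog ligands are sensed by Ptch1, which holds Smo inactive in their absence. Active Smo moves into the primary cilium and stops Gli2 and Gli3 from being cut into repressors, so that their full-length forms switch on targets such as Gli1, Ptch1 and Hhip. Gli2 acts mostly as an activator and Gli3 mostly as a repressor, and cells without both lack both arms. In ducts and gut the ligands come largely from epithelium and the surrounding fibroblasts respond.

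Levels are given as CPM, read counts scaled to a common library size, and changes as log2 of SmoM2 over Gli2FFGli3FF relative to the median protein-coding gene, which was set to 0. A positive change means higher in SmoM2. Genes were tested in edgeR by quasi-likelihood, p-values were adjusted by Benjamini and Hochberg's method over all 24383 genes tested, and a gene was called at an adjusted p under 0.05.

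The groups differed in RNA makeup, and every result below stands beside that difference. Total counts were 21406062 to 24475483 in SmoM2 libraries and 23581747 to 38301189 in Gli2FFGli3FF libraries. The ribosomal RNA locus CT010467.1 took 11.99, 17.2 and 22.6% of counts in SmoM2 replicates 1 to 3 and 49.2, 40.9, 50.0 and 38.4% in Gli2FFGli3FF replicates 1 to 4, with no overlap, against 13.4 to 29.4% in wild type. Detected genes numbered 21965 to 28796 in SmoM2, 17508 to 20055 in Gli2FFGli3FF and 21127 to 24483 in wild type. Transcripts of the female-specific Xist gene were at 0 to 0.132 CPM of total counts in SmoM2 and 4.58 to 32.0 in Gli2FFGli3FF, while genes of the Y chromosome were at 128 to 255 and at 1.20 to 149, so that Xist was present in all 4 Gli2FFGli3FF libraries and close to 0 in SmoM2. Some Gli2FFGli3FF libraries held both kinds of transcript, with Xist at 4.58 and Y genes at 149 CPM in replicate 4. In replicate 3 they were at 10.07 and 16.98 CPM. Whether a library held material of more than 1 animal was not tested. With the ribosomal RNA share as a covariate 700 genes were called instead of 3777. Of the 99 called genes whose changes are given below, 60 were not called in that fit, and for 45 of these 60 the log2 change itself stayed within 1.5 times of its value without the covariate. For the other 15 it was smaller by more, as given for each gene. Against Gli2FFGli3FF replicate 4 alone, the library of that group with the most Y chromosome transcripts, 753 were called, and no gene was called in the opposite direction in either fit. The part of RNA makeup and sex in the results was not tested beyond these fits. In such sorted bulk samples fewer cells of a type and less RNA per cell cannot be told apart.

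Fibroblast markers were expressed in both groups. Pdgfra was at 209, 191 and 191 CPM in SmoM2 and 253, 266, 285 and 303 CPM in Gli2FFGli3FF, and the collagen gene Col3a1 and the proteoglycan gene Dcn were at 5822 to 6399 and 11246 to 15640.0 CPM in SmoM2 and at 6793 to 9018 and 11171 to 15039 CPM in Gli2FFGli3FF. None of these 3 genes was called, although every Pdgfra value of SmoM2 lay below every value of Gli2FFGli3FF. The marker list also held Col1a1 and Lum, of which Lum is not reported here. Col1a1 was called higher in SmoM2, with means of 5944.5 CPM in SmoM2 and 2589.5 CPM in Gli2FFGli3FF, as given below.

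The targeted genes were read first. Gli2 (chr1:118834132-119053619, minus strand, mm10) was at 33.7, 24.03 and 21.4 CPM in SmoM2 and at 1.55, 6.38, 5.4 and 5.99 CPM in Gli2FFGli3FF, a log2 change of 2.44 (SE 0.46, adjusted p = 0.000913). Gli3 (chr13:15463235-15730026, plus strand) was at 31.9, 25.01 and 22.6 CPM in SmoM2 and at 7.62, 6.38, 2.82 and 6.39 CPM in Gli2FFGli3FF, a log2 change of 2.19 (SE 0.33, adjusted p = 7.95e-05). The groups did not overlap for either gene, and both were lower in the group whose genotype names them. Against the wild type mean, Gli2FFGli3FF libraries kept 29.3% of Gli2 and 17.1% of Gli3. Counts per gene do not separate transcripts that still span a deleted exon from those of cells that did not recombine. Smo (chr6:29735503-29761365, plus strand) was at 46.4, 49.7 and 35.2 CPM in SmoM2, 46.9, 52.9, 47.9 and 31.7 CPM in Gli2FFGli3FF and 21.02 to 33.7 CPM in wild type, so the SmoM2 and Gli2FFGli3FF libraries overlapped. The tables do not separate transcripts of the SmoM2 allele from those of the endogenous gene. The Gli2 call ended with the ribosomal RNA covariate (2.44 became 2.43, adjusted p = 0.0937) and against Gli2FFGli3FF replicate 4 alone (2.04, adjusted p = 0.169), whereas the Gli3 call held in both.

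The feedback receptors and Gli1 were higher in SmoM2. Gli1, the target that amplifies Gli output, was at 47.5, 49.5 and 16.4 CPM in SmoM2 and at 0.27, 1.06, 0.43 and 2.51 CPM in Gli2FFGli3FF, against 7.41 to 25.1 CPM in wild type (log2 change 5.13, SE 0.75, adjusted p = 5.57e-05). All 4 Gli2FFGli3FF libraries lay below every wild type library for Gli1, and SmoM2 replicate 3 lay inside the wild type range. Ptch1, the inhibitory receptor, was at 257, 362 and 233 CPM in SmoM2, 46.5, 32.97, 74.3 and 76.2 CPM in Gli2FFGli3FF and 19.1 to 34.4 CPM in wild type (log2 change 2.30, SE 0.37, adjusted p = 0.000134). The Ptch1 level in Gli2FFGli3FF did not lie below wild type, and 3 of its 4 libraries exceeded every wild type library. Hhip, a secreted decoy that binds Hedgehog ligands, was at 185, 267 and 172 CPM in SmoM2 and 1.21, 2.08, 9.58 and 13.9 CPM in Gli2FFGli3FF, against 1.18 to 13.4 CPM in wild type (log2 change 4.96, SE 0.81, adjusted p = 0.000181). For Hhip the Gli2FFGli3FF libraries fell into a lower pair, replicates 1 and 2, and a higher pair, replicates 3 and 4, which both stayed far below SmoM2. Of Gli1, Ptch1 and Hhip, Gli1 alone was below every wild type library in all 4 Gli2FFGli3FF libraries. The Gli1 call ended with the ribosomal RNA covariate (4.02, adjusted p = 0.0527), and those of all 3 genes ended against Gli2FFGli3FF replicate 4 alone, with changes of 3.81 for Gli1 (adjusted p = 0.0882), 1.80 for Ptch1 (adjusted p = 0.123) and 3.80 for Hhip (adjusted p = 0.113).

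**Figure D1:**
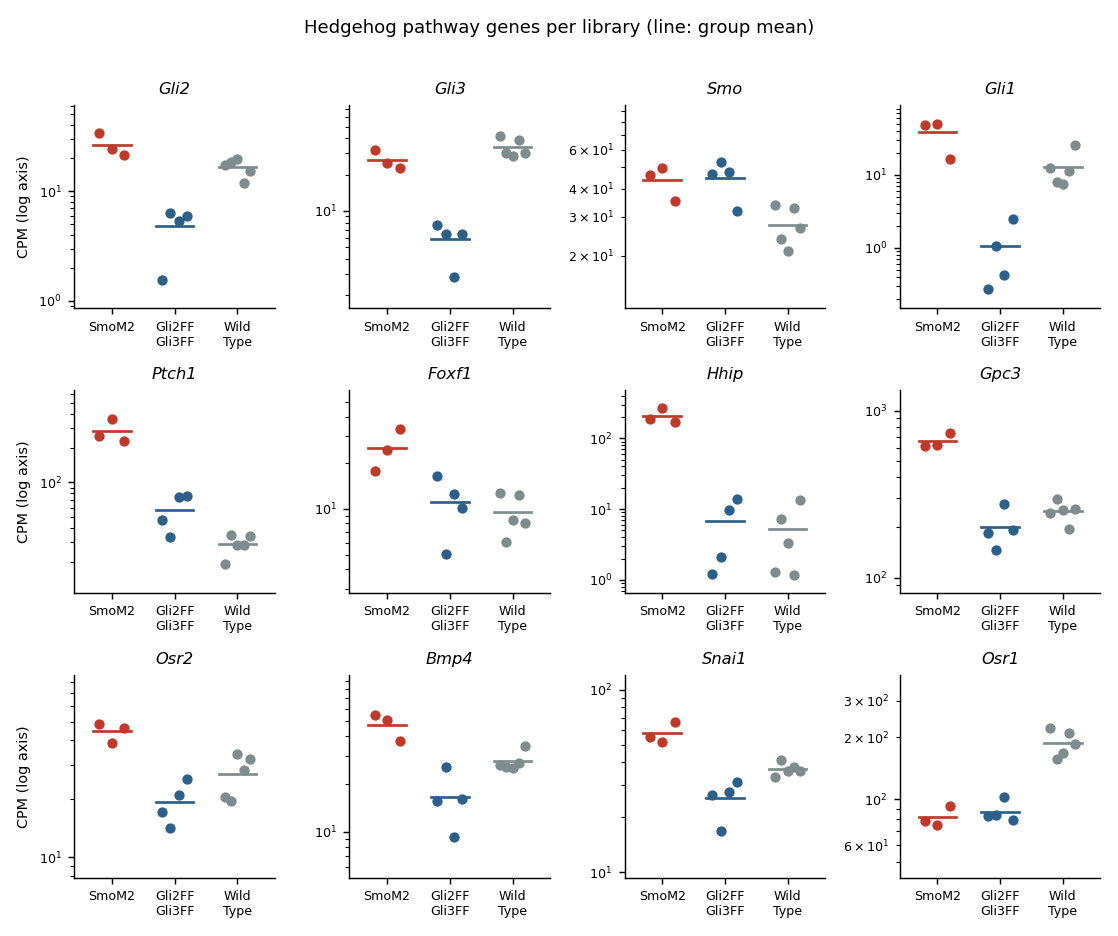
CPM on a log axis for 12 Hedgehog pathway genes in each library of SmoM2 (red), Gli2FFGli3FF (blue) and wild type (grey), with a line at each group mean. All Gli2FFGli3FF points of Gli1, Gli2 and Gli3 sit below wild type, those of Ptch1 do not, and Smo and Osr1 overlap between SmoM2 and Gli2FFGli3FF.

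The 250 bases before 1 annotated start each of Ptch1 and of Hhip are shown because the calls of these 2 feedback receptors held with the ribosomal RNA covariate. The Ptch1 window lies inside the GENCODE span of the gene (chr13:63508328-63573598, minus strand), so its start is not the outermost one. The sequences are RefSeq's, build GRCm38.p6, read 5′ to 3′ on the strand of the gene, and capitals mark matches to the GC box GGGCGG on either strand.
Ptch1 (chr13:63565736-63565985, minus strand): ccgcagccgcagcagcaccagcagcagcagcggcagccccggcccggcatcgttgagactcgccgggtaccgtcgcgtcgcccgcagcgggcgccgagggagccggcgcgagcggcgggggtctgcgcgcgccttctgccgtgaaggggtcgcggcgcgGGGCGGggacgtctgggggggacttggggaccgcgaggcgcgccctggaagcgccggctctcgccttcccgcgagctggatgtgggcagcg
Hhip (chr8:80058009-80058258, minus strand): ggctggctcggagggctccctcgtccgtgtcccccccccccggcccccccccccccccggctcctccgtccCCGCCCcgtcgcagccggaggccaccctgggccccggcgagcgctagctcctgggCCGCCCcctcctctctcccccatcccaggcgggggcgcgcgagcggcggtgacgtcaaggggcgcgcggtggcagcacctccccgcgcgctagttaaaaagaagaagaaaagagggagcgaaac
A GC box match is found in 32.7% of all 32851 such windows. Among windows of named genes it is found in 54.7% of 53 called higher and 55.1% of 49 called lower. The Gli-type word TGGGTGGTC, searched on both strands, occurs in 74 windows (0.225%) and in none of the 7 Hedgehog genes called higher that have a window (Gli2, Gli3, Gpc3, Ptch1, Hhip, Bmp4 and Snai1). Those letters not being in these windows says nothing about binding elsewhere.

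Of the 10 receptors and coreceptors, 9 were tested, 4 were called higher and 1 lower, with a median log2 change of 1.72. Over all 24383 genes tested, 7.57% were called higher and 7.92% lower, and over the 15299 protein-coding genes 6.22% and 9.41%. Every SmoM2 library exceeded every Gli2FFGli3FF library for 19.1% of all genes tested and lay below all of them for 12.7%, and for protein-coding genes these shares were 14.3% and 14.9%. Besides Ptch1 and Hhip, the cell-surface heparan sulfate proteoglycan gene Gpc3, whose product competes for ligand, was higher in SmoM2, at 617, 621 and 739 CPM in SmoM2 and 185, 146, 275 and 193 CPM in Gli2FFGli3FF (log2 change 1.72, SE 0.20, adjusted p = 3.87e-06). Wild type Gpc3 lay at 195 to 294 CPM, beside Gli2FFGli3FF. Gas1, a coreceptor that the pathway is known to repress, was lower, at 178, 155 and 184 CPM in SmoM2 and 359, 296, 346 and 457 CPM in Gli2FFGli3FF (log2 change -1.08, SE 0.33, adjusted p = 0.0287). The Gas1 call ended without any 1 of the 3 SmoM2 libraries or without Gli2FFGli3FF replicate 4 (adjusted p = 0.0559 to 0.108), with the ribosomal RNA covariate (adjusted p = 0.531) and with centring on well-expressed genes (adjusted p = 0.0503). The coreceptor Boc was at 88.3, 65.1 and 75.5 CPM in SmoM2 and 34.1, 29.5, 31.9 and 54.7 CPM in Gli2FFGli3FF and did not pass the test (log2 change 1.02, adjusted p = 0.0741). The coreceptor Cdon overlapped between the groups, at 125 to 152 CPM in SmoM2 and 113 to 194 CPM in Gli2FFGli3FF.

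Among 24 tested members of the target list 10 were called higher, none lower, and the median log2 change was 1.12. The count was 7 to 10 when 1 library was left out and 3 with the ribosomal RNA covariate (Ptch1, Hhip and Snai1), and no target was called against Gli2FFGli3FF replicate 4 alone. Bmp4, a growth factor of the BMP family, was at 54.3, 50.4 and 37.5 CPM in SmoM2 and 15.7, 25.8, 9.21 and 15.98 CPM in Gli2FFGli3FF (log2 change 1.51, SE 0.29, adjusted p = 0.00103). Snai1, a transcriptional repressor, was at 55.4, 51.4 and 66.9 CPM in SmoM2 and 26.4, 16.8, 27.7 and 31.2 CPM in Gli2FFGli3FF (log2 change 1.18, SE 0.27, adjusted p = 0.00424). Osr2, a zinc finger factor of mesenchyme, was at 48.4, 38.98 and 46.6 CPM in SmoM2 and 17.1, 14.1, 20.9 and 25.2 CPM in Gli2FFGli3FF (log2 change 1.21, SE 0.27, adjusted p = 0.00407). For these 3 genes every SmoM2 library exceeded every Gli2FFGli3FF library, and the wild type values of 25.4 to 35.02 CPM for Bmp4, 33.4 to 41.3 CPM for Snai1 and 19.6 to 33.9 CPM for Osr2 lay below every SmoM2 library. Foxf1, a forkhead factor of gut mesenchyme, was at 17.6, 24.3 and 33.1 CPM in SmoM2 and 16.5, 5.06, 12.5 and 10.1 CPM in Gli2FFGli3FF (log2 change 1.18, SE 0.39, adjusted p = 0.0442). The cell cycle gene Ccnd2 was at 81.1, 74.2 and 85.2 CPM in SmoM2 and 70.4, 35.1, 36.6 and 40.02 CPM in Gli2FFGli3FF (log2 change 0.82, SE 0.28, adjusted p = 0.0497). The calls of Foxf1 and Ccnd2 ended in 5 and 6 of the 7 fits that left out 1 library, with adjusted p = 0.0671 to 0.165 for Foxf1 and 0.0753 to 0.142 for Ccnd2, and with the ribosomal RNA covariate (adjusted p = 0.297 for Foxf1 and 0.258 for Ccnd2). The Foxf1 call also ended in the fit of only the 7 libraries (adjusted p = 0.0549), and the Ccnd2 call with RLE (adjusted p = 0.0546) or upper quartile scaling (adjusted p = 0.0513). Foxl1, a forkhead gene of intestinal mesenchyme, had no count in any Gli2FFGli3FF library and 1.61, 1.51 and 0.586 CPM in SmoM2, at least 31.7-fold higher against a floor of 3 counts over the group, and its call ended in every fit that left out 1 library. Osr1 did not follow its relative Osr2. It was at 78.2, 75.1 and 92.7 CPM in SmoM2 and 82.7, 83.5, 103 and 79.1 CPM in Gli2FFGli3FF, which overlapped, and both groups lay below the 157 to 222 CPM of wild type.

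The machinery between Smo and the Gli factors moved less. Of 28 transducers, Gli1, Gli2, Gli3 and the beta-arrestin gene Arrb2 were called higher and 3 were called lower, and the median log2 change was -0.03. Cul3, the scaffold of the ubiquitin ligase that degrades Gli2 and Gli3 through Spop, was lower, at 18.4, 22.7 and 26.5 CPM in SmoM2 and 93.5, 85.2, 73.4 and 83.8 CPM in Gli2FFGli3FF (log2 change -1.90, SE 0.29, adjusted p = 9.27e-05), with wild type at 17.4 to 33.4 CPM beside SmoM2. The protein kinase A subunit gene Prkar2a was at 18.8, 16.9 and 11.5 CPM in SmoM2 and 29.4, 34.7, 30.3 and 35.6 CPM in Gli2FFGli3FF (log2 change -1.04, SE 0.26, adjusted p = 0.00794). The calls of Cul3 and Prkar2a ended with the ribosomal RNA covariate (adjusted p = 0.0858 for Cul3 and 0.122 for Prkar2a), and that of Prkar2a also without a filter on low counts (adjusted p = 0.0571). The casein kinase gene Csnk1a1 (log2 change -0.79, SE 0.22, adjusted p = 0.0206) and Arrb2 (log2 change 1.69, SE 0.49, adjusted p = 0.0214) were called, and each call ended in several of the fits that left out 1 library (adjusted p = 0.0503 to 0.0899 for Csnk1a1 and 0.0502 to 0.0624 for Arrb2) and with the covariate (adjusted p = 0.413 and 0.419). Sufu, which restrains Gli proteins in the cytoplasm, overlapped between the groups at 8.36 to 19.4 CPM in SmoM2 and 10.3 to 25.3 CPM in Gli2FFGli3FF. Of 36 genes of the primary cilium and its transport, 2 were called in each direction, with a median of -0.12. Beside the 7.57% higher and 7.92% lower of all genes tested, the cilium counts do not stand out. No ligand gene gave a measurable level, with Shh and Ihh at 0 counts in all 12 libraries of the 3 groups and Dhh under 1 CPM in each. The ligand-release factor Scube1, at 1.07, 1.31 and 1.83 CPM in SmoM2, had 1 count in all of Gli2FFGli3FF.

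Across all genes 3777 of 24383 tested (15.5%) were called, 1846 higher in SmoM2 and 1931 lower. Among protein-coding genes 952 were higher and 1440 lower. Counts fell by over 1.5 times when single libraries were left out, to 1015 higher and 1039 lower without SmoM2 replicate 1, to 1048 and 1188 without SmoM2 replicate 2, and to 1044, 1050 and 1147 higher without Gli2FFGli3FF replicates 1, 2 and 3 in turn. The median of all genes tested was 0.32, above the 0 set for protein-coding genes. Of the 894 protein-coding genes called higher without overlap of the groups, the wild type median lay inside or above the SmoM2 range for 512 (57.3%), between the groups for 292 (32.7%) and inside or below the Gli2FFGli3FF range for 90 (10.1%). Of the 1379 called lower without overlap, the wild type median lay inside or below the SmoM2 range for 728 (52.8%), between for 562 (40.8%) and inside or above the Gli2FFGli3FF range for 89 (6.45%). Most called genes were thus ones where Gli2FFGli3FF lay away from wild type. The receptors and targets called higher lay otherwise: wild type was inside or below the Gli2FFGli3FF range for all 4 receptors and for 6 of the 10 targets, with the other 4 between, and the lists share members, such as Ptch1 and Hhip. For the transducers wild type was with Gli2FFGli3FF for none, with SmoM2 for 2 and between for 2 of the 4 called higher, and with SmoM2 for 1 and between for 2 of the 3 called lower. For Gas1, the receptor gene called lower, it lay between. These counts describe positions of medians and carry no test.

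**Figure D2:**
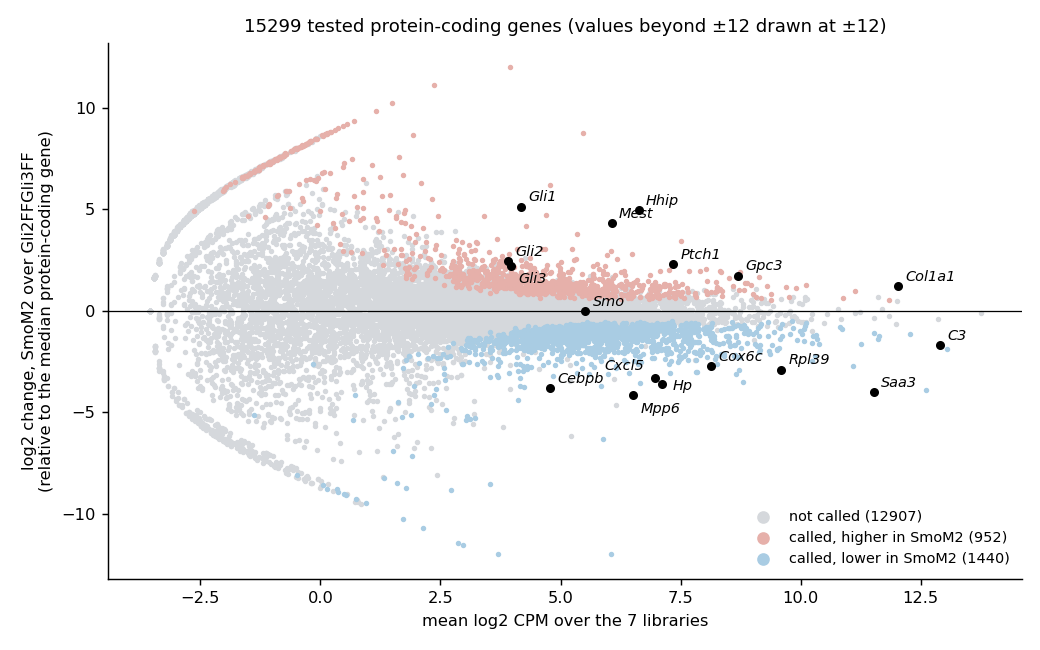
Log2 change of SmoM2 over Gli2FFGli3FF against mean log2 CPM over the 7 libraries for the 15299 tested protein-coding genes, with 952 called higher (red), 1440 called lower (blue) and the rest grey. Hhip, Gli1, Mest and Ptch1 stand well above 0, Smo lies at 0, and Saa3, Mpp6, Cebpb, Hp and Cxcl5 stand well below.

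Some of the largest changes lay outside the Hedgehog pathway. Cldn1, a tight junction gene, was at 28.2, 27.7 and 44.2 CPM in SmoM2 and had no count in any of the 4 Gli2FFGli3FF libraries, at least 824-fold higher against the floor of 3 counts, with wild type at 0 to 2.55 CPM. In the other direction Serpinb2, a protease inhibitor of inflamed tissue, had no count in SmoM2 and 210.4, 150.0, 56.9 and 45.95 CPM in Gli2FFGli3FF, at least 3715-fold lower, with wild type at 0 to 8.87 CPM. The Cldn1 call held with the ribosomal RNA covariate and the Serpinb2 call did not. Wild type lay near the low group for both genes. Gm5148 and Gadl1 also rose strongly in SmoM2, but they differed within wild type. Gm5148 was at 70.5 to 124 CPM in SmoM2 and 0.189 to 0.246 CPM in Gli2FFGli3FF. In wild type replicates 1 to 5 it was at 139, 151, 147, 0 and 0.0943 CPM. Gadl1 was at 45.2 to 72.7, 0.184 to 2.36, and 81.9, 95.9, 87.0, 0.401 and 0.157 CPM in the same order. What divides the wild type libraries was not tested. Mest, an imprinted gene of growing mesenchyme, was at 136, 121 and 156 CPM in SmoM2 and 3.78, 6.8, 7.49 and 9.48 CPM in Gli2FFGli3FF, against 18.1 to 44.3 CPM in wild type (log2 change 4.32, SE 0.40, adjusted p = 1.58e-07), so the genotypes lay on opposite sides of wild type. Gnas, the imprinted gene of the stimulatory G protein subunit, was at 26.8, 24.1 and 23.6 CPM in SmoM2 and 1.42, 2.38, 2.58 and 2.23 CPM in Gli2FFGli3FF (log2 change 3.52, SE 0.47, adjusted p = 1.63e-05), with wild type at 11.5 to 49.7 CPM. Gnas lies over antisense transcripts and the use of strand in the counting is not given, so its value, like those of the imprinted genes Mest and Meg3, is uncertain. The membrane scaffold gene Mpp6 was at 1.36, 15.3 and 8.96 CPM in SmoM2 and 150.0, 164, 143 and 158 CPM in Gli2FFGli3FF, against 76.002 to 113 CPM in wild type (log2 change -4.17, SE 0.48, adjusted p = 2.9e-06). Mpp6 was the reverse of Mest, lower in SmoM2 than in wild type and higher in Gli2FFGli3FF. Clca3a2, a chloride channel regulator, was at 2.69, 1.05 and 0 CPM in SmoM2 and 114, 189, 46.7 and 58.6 CPM in Gli2FFGli3FF (log2 change -6.33, SE 1.57, adjusted p = 0.00812), and its call ended with the ribosomal RNA covariate.

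Some imprinted growth genes were far higher in SmoM2. Of 22 tested members of the list of IGF binding proteins and imprinted growth genes 5 were called higher and 1 lower, with a median of 0.48. The shares over all genes tested were 7.57% higher and 7.92% lower. Peg3, an imprinted zinc finger gene, was at 234, 186 and 139 CPM in SmoM2 and 53.9, 48.8, 56.7 and 59.6 CPM in Gli2FFGli3FF (log2 change 1.77, SE 0.26, adjusted p = 6.58e-05). Meg3, an imprinted long non-coding RNA, was at 393, 283 and 112 CPM in SmoM2 and 5.8, 14.96, 13.3 and 28.5 CPM in Gli2FFGli3FF (log2 change 4.07, SE 0.67, adjusted p = 0.000197). The 3 imprinted genes Mest, Peg3 and Meg3 separated the groups without overlap, and the calls of Peg3 and Meg3 ended with the ribosomal RNA covariate, where the change of Meg3 was 1.499 (adjusted p = 0.421). Igf1, the insulin-like growth factor, was the member called lower, at 493, 466 and 577 CPM in SmoM2 and 795, 1447, 1909 and 1697 CPM in Gli2FFGli3FF (log2 change -1.51, SE 0.24, adjusted p = 0.000112), with wild type at 613 to 749 CPM and the call lost with the covariate.

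Extracellular matrix genes were higher in SmoM2 more often than lower. Of 39 fibrillar collagen and matrix genes 10 were called higher and 2 lower, with a median of 0.47. The shares over all genes tested were 7.57% higher and 7.92% lower. Without Gli2FFGli3FF replicate 1 the count higher was 6, and with the ribosomal RNA covariate 5. Col1a1, the main chain of type I collagen, was at 6299, 5837 and 5697 CPM in SmoM2 and 2391, 2483, 2876 and 2608 CPM in Gli2FFGli3FF, against 2964 to 4768 CPM in wild type (log2 change 1.20, SE 0.20, adjusted p = 0.000218). Mfap4, a microfibril protein of elastic fibres, was at 623, 670.2 and 814 CPM in SmoM2 and 84.3, 162, 249 and 256 CPM in Gli2FFGli3FF (log2 change 1.90, SE 0.29, adjusted p = 7.18e-05). Lysyl oxidases crosslink collagen and elastin, and 2 of their genes went opposite ways. Loxl3 was at 48.03, 43.6 and 31.5 CPM in SmoM2 and 6.88, 12.5, 7.61 and 15.3 CPM in Gli2FFGli3FF (log2 change 1.95, SE 0.32, adjusted p = 0.000197), whereas Lox was at 82.1, 82.8 and 93.8 CPM in SmoM2 and 266, 282, 351 and 278 CPM in Gli2FFGli3FF (log2 change -1.77, SE 0.32, adjusted p = 0.000615). The calls of Loxl3 and Lox ended with the covariate. Against Gli2FFGli3FF replicate 4 alone the changes were smaller, at 1.09 for Col1a1, 1.36 for Mfap4 and 1.33 for Loxl3. Wild type Col1a1 lay between the groups, while wild type Loxl3, at 36.1 to 51.2 CPM, overlapped the SmoM2 range.

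Collagen processing enzymes had 7 of 21 called higher and 1 lower, with a median of 0.57. The count higher was 4 without Gli2FFGli3FF replicate 1 or without SmoM2 replicate 3. Crtap, part of the prolyl 3-hydroxylase complex, changed by 1.13 (SE 0.25, adjusted p = 0.00296). The lysyl hydroxylase genes Plod1 and Plod3 changed by 1.27 (SE 0.27, adjusted p = 0.00254) and 1.05 (SE 0.26, adjusted p = 0.00918). Their relative Plod2, whose product hydroxylates the telopeptides of collagen, was lower, at 62.7, 62.7 and 42.04 CPM in SmoM2 and 137, 168, 135 and 106 CPM in Gli2FFGli3FF (log2 change -1.29, SE 0.29, adjusted p = 0.00359). Plod1 and Plod2 lost their calls with the covariate. Of 13 small leucine-rich proteoglycan genes 4 were called higher and 1 lower, with a median of 0.17. Fmod, which encodes the collagen-binding fibromodulin, was at 158, 90.9 and 146 CPM in SmoM2 and 21.4, 33.8, 39.04 and 42.2 CPM in Gli2FFGli3FF (log2 change 1.95, SE 0.36, adjusted p = 0.00078), and wild type, at 28.4 to 40.96 CPM, lay with Gli2FFGli3FF. The others were Bgn at 0.98 (SE 0.20, adjusted p = 0.00158), Podn at 1.24 (SE 0.24, adjusted p = 0.00123) and Prelp at 1.000 (SE 0.25, adjusted p = 0.00845), of which Podn and Prelp were not called with the covariate, at changes of 1.26 (adjusted p = 0.0969) and 1.38 (adjusted p = 0.0712). Against Gli2FFGli3FF replicate 4 alone the changes were smaller, at 1.54 for Fmod, 0.89 for Bgn, 0.61 for Podn and 0.36 for Prelp. Of 22 basement membrane genes 3 were higher and 1 lower, with a median of -0.04, and the count higher was 1 in 5 of the 7 fits that left out 1 library. Col4a3, a chain of type IV collagen, was at 28.2, 23.1 and 20.2 CPM in SmoM2 and 2.02, 1.25, 7.67 and 11.9 CPM in Gli2FFGli3FF (log2 change 2.07, SE 0.53, adjusted p = 0.00972), with the call lost in the fit of only the 7 libraries (adjusted p = 0.0512) and with the covariate (1.18, adjusted p = 0.508). Against Gli2FFGli3FF replicate 4 alone the change of Col4a3 was 0.91. Of 18 matrix protease and inhibitor genes none was called higher and 2 were lower. Beside the 7.57% higher and 7.92% lower of all genes tested, the basement membrane and protease counts do not stand out. Adamts5, an aggrecan-cleaving protease, changed by -1.07 (SE 0.22, adjusted p = 0.00189) and Timp1, a metalloprotease inhibitor, was at 154, 49.3 and 194 CPM in SmoM2 and 952, 587, 571 and 260.5 CPM in Gli2FFGli3FF (log2 change -2.16, SE 0.52, adjusted p = 0.00694). The Timp1 call ended without SmoM2 replicate 2 (adjusted p = 0.0527), and both calls ended with the covariate.

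**Figure D3:**
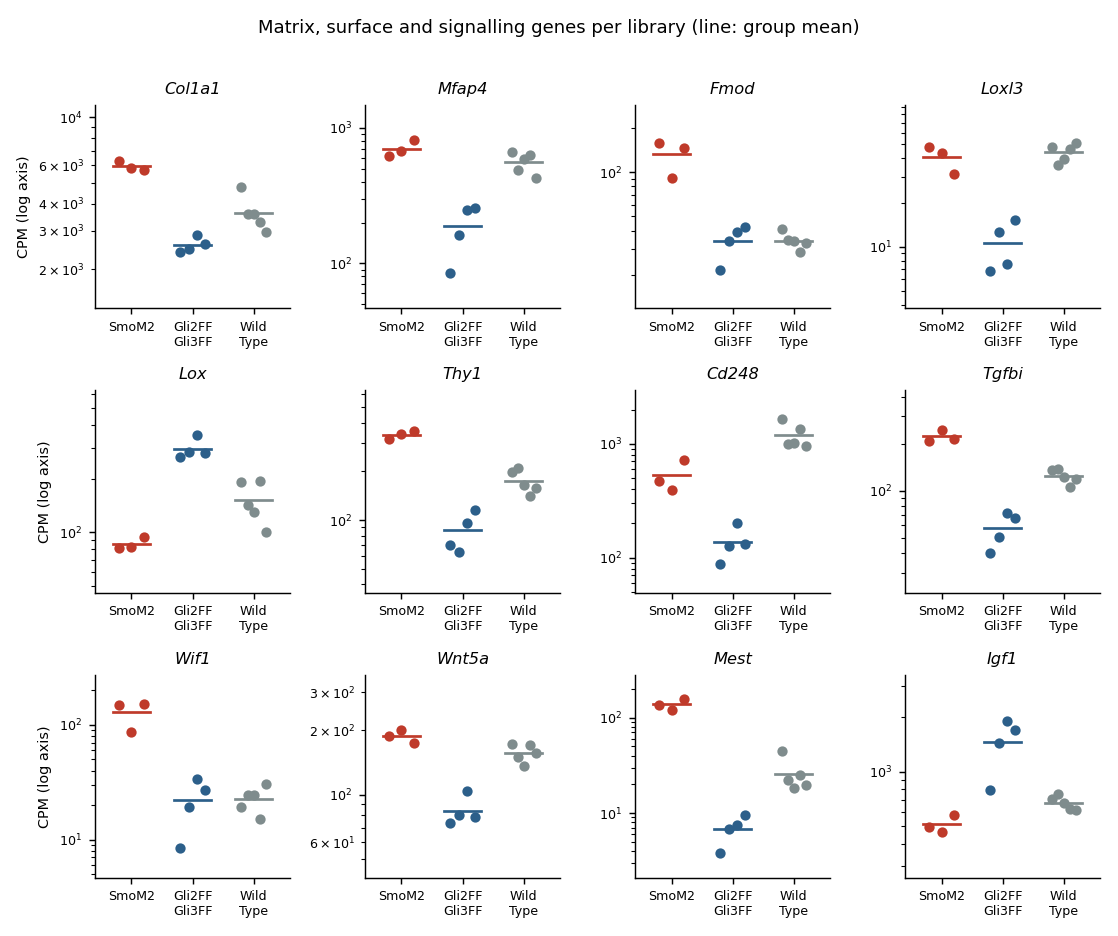
CPM on a log axis for 12 matrix, surface and signalling genes in each library of SmoM2 (red), Gli2FFGli3FF (blue) and wild type (grey), with a line at each group mean. Lox and Igf1 are lower in SmoM2 than in Gli2FFGli3FF and the other 10 are higher, with Fmod and Wif1 of wild type beside Gli2FFGli3FF.

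Signalling genes that act on neighbouring cells were called in both directions. Over all genes tested 7.57% were called higher and 7.92% lower, and the BMP counts below lie near these shares. In the TGF-beta and activin list 5 of 22 were called higher and 1 lower, with a median of 0.34. Tgfbi, a matrix protein induced by TGF-beta, was at 209, 244 and 215 CPM in SmoM2 and 40.1, 50.99, 72.01 and 66.96 CPM in Gli2FFGli3FF (log2 change 1.95, SE 0.32, adjusted p = 0.000162). Ltbp4, which stores latent TGF-beta in the matrix, was at 864, 886 and 909 CPM in SmoM2 and 249, 197, 284 and 386 CPM in Gli2FFGli3FF (log2 change 1.67, SE 0.32, adjusted p = 0.000851). The coreceptor gene Eng changed by 1.27 (SE 0.29, adjusted p = 0.00382). Inhba, the activin A subunit, was at 94.4, 63.7 and 55.4 CPM in SmoM2 and 3.91, 12.5, 5.71 and 27.2 CPM in Gli2FFGli3FF (log2 change 2.53, SE 0.65, adjusted p = 0.0111), with wild type at 3.31 to 12.99 CPM beside the lower group. The member called lower was not called without any 1 SmoM2 library. In the BMP list 2 of 28 were called higher and 3 lower, and the count higher was 1 without Gli2FFGli3FF replicate 1 or 3 or any 1 SmoM2 library. The extracellular antagonist Fst, which also binds activin, was at 6.17, 6.49 and 5.62 CPM in SmoM2 and 18.1, 18.6, 38.98 and 78.8 CPM in Gli2FFGli3FF (log2 change -2.66, SE 0.58, adjusted p = 0.00285), and Twsg1, a BMP-binding protein, changed by -1.24 (SE 0.20, adjusted p = 0.000182). Activin subunit and activin antagonist thus moved in opposite directions, as did Bmp4 and Twsg1. The calls of Inhba, Fst and Twsg1 ended with the covariate, where Inhba fell to a change of 0.41 (adjusted p = 0.883), Twsg1 stood at -0.51 (adjusted p = 0.407) and Fst at -2.56 (adjusted p = 0.13).

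Among Wnt genes 2 of 13 tested ligands were called higher and 1 lower, and the count higher was 1 in 6 of the 7 fits that left out 1 library, all but that without SmoM2 replicate 2. Wnt5a, a ligand of the beta-catenin-independent branch, was at 187, 201 and 174 CPM in SmoM2 and 73.7, 80.6, 104 and 78.95 CPM in Gli2FFGli3FF (log2 change 1.15, SE 0.19, adjusted p = 0.000259), with wild type between at 135 to 171 CPM. Wnt4 was at 11.6, 17.7 and 13.1 CPM in SmoM2 and 47.7, 39.2, 40.1 and 21.5 CPM in Gli2FFGli3FF (log2 change -1.39, SE 0.44, adjusted p = 0.0337). The Wnt4 call ended in 6 of the 7 fits that left out 1 library (adjusted p = 0.0587 to 0.145), with the covariate (adjusted p = 0.216) and with centring on well-expressed genes (adjusted p = 0.0506). Of 13 secreted Wnt modulators 3 were higher and none lower, and the count was 1 or 2 in each fit that left out 1 library. Wif1, a secreted Wnt inhibitor, was at 151, 86.4 and 152 CPM in SmoM2 and 8.37, 19.3, 34.01 and 26.9 CPM in Gli2FFGli3FF, with wild type at 15.2 to 30.3 CPM (log2 change 2.55, SE 0.63, adjusted p = 0.00812). Of 22 genes of the beta-catenin target list 3 were higher and 2 lower. Tcf7l2, a nuclear partner of beta-catenin, changed by 1.503 (SE 0.23, adjusted p = 0.000107) and Nkd2, a feedback inhibitor, by 1.73 (SE 0.40, adjusted p = 0.00458). Twist1, a mesenchymal transcription factor, was at 3.34, 2.72 and 2.17 CPM in SmoM2 and 29.1, 13.3, 12.9 and 10.6 CPM in Gli2FFGli3FF (log2 change -2.58, SE 0.59, adjusted p = 0.00452). Wif1, Tcf7l2, Nkd2 and Twist1 lost their calls with the covariate, where the change of Wif1 was 1.10 (adjusted p = 0.652). The beta-catenin target count lower was 1 without Gli2FFGli3FF replicate 1 or 2 or SmoM2 replicate 1 or 3. Of 22 stromal growth factor genes 2 were higher and 4 lower, and of 23 PDGF and FGF genes none was higher and 2 were lower. The shares over all genes tested were 7.57% higher and 7.92% lower, beside which the PDGF and FGF counts do not stand out. Mdk, the growth factor midkine, was at 47.7, 51.3 and 68.1 CPM in SmoM2 and 229, 269, 163 and 87.2 CPM in Gli2FFGli3FF (log2 change -1.75, SE 0.38, adjusted p = 0.00287), and Fgf2 changed by -1.45 (SE 0.31, adjusted p = 0.00235), both lost with the covariate. The stromal growth factor count lower was 2 without SmoM2 replicate 1 or 3, and the count higher was 0 without Gli2FFGli3FF replicate 2 and 1 without Gli2FFGli3FF replicate 1 or 3 or SmoM2 replicate 1 or 3. The PDGF and FGF count lower was 1 without Gli2FFGli3FF replicate 3 or 4 or SmoM2 replicate 1 or 2. The Notch modifier gene Rfng, at 26.9, 18.6 and 25.7 CPM in SmoM2 and 3.44, 9.22, 1.66 and 3.03 CPM in Gli2FFGli3FF (log2 change 2.44, SE 0.44, adjusted p = 0.000592), was among 2 of 14 Notch genes called higher, with 1 lower, and was lost with the covariate. The Notch count higher was 1 without Gli2FFGli3FF replicate 1, 2 or 3 or SmoM2 replicate 1 or 2 and 3 without Gli2FFGli3FF replicate 4, and the count lower was 0 without SmoM2 replicate 1 or 2.

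Surface markers of adventitial fibroblasts included 5 of 20 called higher and 2 lower, with a median of 0.48. Thy1 was at 316, 341 and 353 CPM in SmoM2 and 70.4, 63.9, 95.8 and 116 CPM in Gli2FFGli3FF, against 141 to 210.4 CPM in wild type (log2 change 1.96, SE 0.31, adjusted p = 0.000112). Cd248 was at 473, 392 and 716 CPM in SmoM2 and 88.5, 126, 200.1 and 133 CPM in Gli2FFGli3FF (log2 change 1.95, SE 0.39, adjusted p = 0.00144), and both groups lay below wild type at 961 to 1645 CPM. The proprotein convertase gene Pcsk6 changed by 3.06 (SE 0.68, adjusted p = 0.00376) and Cd55, which protects cells from complement, by -1.33 (SE 0.30, adjusted p = 0.00381), both lost with the covariate. Contractile genes had no net direction, with 3 of 26 in each direction and a median of 0.00. Csrp1, a cytoskeletal LIM protein, was at 234, 240.5 and 288 CPM in SmoM2 and 47.4, 70.1, 63.3 and 71.6 CPM in Gli2FFGli3FF (log2 change 2.01, SE 0.31, adjusted p = 0.000101), and the calponin gene Cnn2 changed by 1.42 (SE 0.27, adjusted p = 0.00101). The myosin light chain gene Myl6 changed by -0.93 (SE 0.20, adjusted p = 0.00307) and was lost with the covariate. The smooth muscle actin gene Acta2 overlapped, at 160.5 to 187 CPM in SmoM2 and 101 to 278 CPM in Gli2FFGli3FF. Of 38 fibroblast transcription factors 2 were higher and 4 lower. Over all genes tested 7.57% were called higher and 7.92% lower. Beside these shares the contractile and transcription factor counts, and the Hox counts below, do not stand out. The count higher was 4 without Gli2FFGli3FF replicate 4 and 1 without Gli2FFGli3FF replicate 1 or 3 or SmoM2 replicate 1 or 2, and the count lower was 2 without SmoM2 replicate 2 or 3. Tbx3, a T-box repressor, was at 32.8, 33.4 and 32.7 CPM in SmoM2 and 5.06, 5.51, 9.7 and 8.28 CPM in Gli2FFGli3FF (log2 change 2.21, SE 0.48, adjusted p = 0.0029), with wild type at 5.34 to 16.9 CPM. Gata6 changed by -1.11 (SE 0.25, adjusted p = 0.00331), and the calls of Tbx3 and Gata6 ended with the covariate, at changes of 2.84 (adjusted p = 0.0616) and -1.06 (adjusted p = 0.176). Zfp423, a zinc finger factor of adipocyte precursors, was at 46.8, 54.3 and 35.7 CPM in SmoM2 and 8.63, 7.44, 13.4 and 8.33 CPM in Gli2FFGli3FF (log2 change 2.27, SE 0.32, adjusted p = 3.49e-05). Of 20 Hox genes 2 were higher and 1 lower, with Hoxa3 at 14.4, 13.8 and 13.03 CPM in SmoM2 and 5.67, 2.002, 5.71 and 5.02 CPM in Gli2FFGli3FF (log2 change 1.58, SE 0.35, adjusted p = 0.00361). Hoxb2 changed by 4.55 (SE 0.99, adjusted p = 0.00303) and was lost with the covariate, and the Hox count lower was 0 without Gli2FFGli3FF replicate 2 or any 1 SmoM2 library.

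Inflammatory genes were lower in SmoM2 than in Gli2FFGli3FF more often than higher. Well-expressed protein-coding genes (log2 CPM averaging 3 or more) leaned the same way, with 15.98% called lower and 7.92% higher. Of 30 chemokine and cytokine genes 7 were called lower and 2 higher, with a median of -0.76. The count lower was 4 without SmoM2 replicate 1 and 1, Cxcl5, with the ribosomal RNA covariate. The neutrophil-attracting chemokine gene Cxcl1 was at 51.1, 60.8 and 60.02 CPM in SmoM2 and 509, 258, 132 and 319.7 CPM in Gli2FFGli3FF, against 48.8 to 113 CPM in wild type (log2 change -2.41, SE 0.41, adjusted p = 0.000276). Its relative Cxcl5 was at 15.8, 23.5 and 22.3 CPM in SmoM2 and 293, 312, 115 and 83.97 CPM in Gli2FFGli3FF (log2 change -3.29, SE 0.45, adjusted p = 2.63e-05). The monocyte-attracting Ccl2 was at 40.1, 20.7 and 27.98 CPM in SmoM2 and 568, 279.8, 78.9 and 69.7 CPM in Gli2FFGli3FF (log2 change -3.07, SE 0.66, adjusted p = 0.00252), and Ccl7 at 14.5, 4.75 and 22.5 CPM in SmoM2 and 243, 151, 122 and 147 CPM in Gli2FFGli3FF (log2 change -3.57, SE 0.60, adjusted p = 0.000244). Every SmoM2 library lay below every Gli2FFGli3FF library for these 4 genes, while within Gli2FFGli3FF Ccl2 spanned 69.7 to 568 CPM. For Ccl2 Gli2FFGli3FF replicates 3 and 4 lay inside the wild type range of 36.3 to 79.04 CPM.

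Acute-phase genes had 5 of 22 called lower and 1 higher, with a median of -0.25. Saa3, a serum amyloid gene, was at 352, 61.5 and 509 CPM in SmoM2 and 9199, 3633, 4681 and 2174 CPM in Gli2FFGli3FF, against 96.8 to 920.3 CPM in wild type (log2 change -4.001, SE 0.94, adjusted p = 0.00535). Hp, which encodes haptoglobin, was at 19.7, 8.62 and 27.4 CPM in SmoM2 and 243, 175, 199 and 293 CPM in Gli2FFGli3FF, against 186 to 204 CPM in wild type (log2 change -3.61, SE 0.47, adjusted p = 1.43e-05). Saa3 and Hp differed in where wild type lay, Saa3 nearer to SmoM2 and Hp with Gli2FFGli3FF. The metalloreductase gene Steap4 was at 141, 163 and 215 CPM in SmoM2 and 432, 645, 552 and 593 CPM in Gli2FFGli3FF (log2 change -1.68, SE 0.21, adjusted p = 6.82e-06). The adhesion gene Vcam1 was at 48.3, 50.9 and 64.8 CPM in SmoM2 and 199, 187, 154 and 179 CPM in Gli2FFGli3FF (log2 change -1.72, SE 0.19, adjusted p = 1.44e-06). Cebpb, a transcription factor of the acute-phase response, was at 3.22, 3.84 and 2.55 CPM in SmoM2 and 59.6, 38.4, 35.1 and 49.4 CPM in Gli2FFGli3FF, against 1.62 to 31.9 CPM in wild type (log2 change -3.83, SE 0.69, adjusted p = 0.000568). The calls of Cxcl5, Hp, Steap4, Vcam1 and Cebpb held with the covariate, and those of Cxcl1, Ccl2, Ccl7 and Saa3 ended, with Ccl7 at a change of -2.02 (adjusted p = 0.185).

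The upstream windows of Cxcl1 and Steap4 are shown because both genes were lower in every SmoM2 library and their windows hold the kappa B-type word GGNNTTTCC on either strand, which is found in 4.93% of all 32851 windows. Among windows of named genes it is found in 6 of 49 called lower (Clca3a2, Saa3, Igf1, B2m, Cxcl1 and Steap4) and 4 of 53 called higher (Rps2, Notch2, Plod1 and Eno2). The word and the pair were chosen after the values were seen. Capitals mark the matches.
Cxcl1 (chr5:90890995-90891244, plus strand): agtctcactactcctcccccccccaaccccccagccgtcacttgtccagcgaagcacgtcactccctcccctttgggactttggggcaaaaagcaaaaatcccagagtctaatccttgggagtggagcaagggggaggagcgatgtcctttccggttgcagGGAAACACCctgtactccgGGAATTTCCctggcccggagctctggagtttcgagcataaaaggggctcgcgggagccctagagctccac
Steap4 (chr5:7960222-7960471, plus strand): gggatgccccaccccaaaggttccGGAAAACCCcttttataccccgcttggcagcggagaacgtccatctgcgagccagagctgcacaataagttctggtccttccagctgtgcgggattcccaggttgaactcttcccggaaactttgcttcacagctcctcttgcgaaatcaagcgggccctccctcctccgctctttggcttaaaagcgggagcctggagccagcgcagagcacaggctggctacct
A match is a description of these letters and not of binding.

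Complement and interferon genes also had more members called lower than higher. Beside the 15.98% lower and 7.92% higher of well-expressed protein-coding genes, their counts do not stand out. Of 22 complement genes 4 were called lower and 1 higher, with a median of -0.55. C3, the central complement component and among the most abundant transcripts of these cells, was at 3258, 2979 and 3704 CPM in SmoM2 and 6644, 8956, 14113 and 13244 CPM in Gli2FFGli3FF (log2 change -1.70, SE 0.23, adjusted p = 2.66e-05), with wild type between at 4238 to 6386 CPM. The protease gene C1ra changed by -1.23 (SE 0.21, adjusted p = 0.00033). Of 35 interferon-stimulated genes 6 were called lower and 1 higher, with a median of -0.57. The DNA sensor family genes Ifi204 and Ifi211 separated the groups widely. Ifi204 was at 35.6, 48.2 and 46.6 CPM in SmoM2 and 160.5, 186, 152 and 202 CPM in Gli2FFGli3FF, against 80.8 to 88.5 CPM in wild type (log2 change -2.01, SE 0.17, adjusted p = 6.72e-08). Ifi211 was at 23.03, 29.01 and 29.9 CPM in SmoM2 and 118, 152, 194 and 165 CPM in Gli2FFGli3FF, against 59.6 to 91.9 CPM in wild type (log2 change -2.53, SE 0.23, adjusted p = 1.53e-07). SmoM2 thus lay below and Gli2FFGli3FF above wild type for both genes, which belong to a family of near-identical neighbours, so their values are uncertain. Ifi27l2a changed by -2.22 (SE 0.38, adjusted p = 0.000273) and Bst2, which tethers budding virus, by -1.504 (SE 0.27, adjusted p = 0.000548). B2m, the light chain of MHC class I, was at 616, 1338 and 1349 CPM in SmoM2 and 3486, 3426, 3729.7 and 2906 CPM in Gli2FFGli3FF (log2 change -1.62, SE 0.27, adjusted p = 0.000251), among 3 of 16 MHC class I genes called lower, with 3 higher. The count of MHC class I genes called lower was 1 without SmoM2 replicate 1 and 2 without SmoM2 replicate 2 or without Gli2FFGli3FF replicate 1, 2 or 3. The calls of C3, C1ra, Ifi27l2a, Bst2 and B2m ended with the covariate, where the changes were -0.69 for C1ra (adjusted p = 0.285), -0.86 for Ifi27l2a (adjusted p = 0.419), -0.85 for Bst2 (adjusted p = 0.314) and -0.85 for B2m (adjusted p = 0.285).

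Transcripts of immune cells varied strongly within Gli2FFGli3FF. No member of the immune marker list was called among 13 tested, their median was -1.90, and their summed level was 14.99 to 26.5 CPM in SmoM2 and 20.9 to 464 CPM in Gli2FFGli3FF, against 6.65 to 72.6 CPM in wild type. The macrophage lysozyme gene Lyz2 was at 8.32, 11.1 and 13.6 CPM in SmoM2 and 322, 11.4, 14.3 and 106 CPM in Gli2FFGli3FF. Its high libraries were Gli2FFGli3FF replicates 1 and 4. Adgre1, a defining macrophage marker, was at 0, 0 and 0 CPM in SmoM2 and 2.9, 0, 0.307 and 3.43 CPM in Gli2FFGli3FF, and the leukocyte marker Ptprc at 0.226, 0.361 and 2.03 CPM in SmoM2 and 11.2, 1.17, 0 and 3.71 CPM in Gli2FFGli3FF. Cxcl1, Ccl2, Ccl7, Saa3, Vcam1 and Cebpb were at their highest in Gli2FFGli3FF replicate 1, the library with the summed immune level of 464 CPM. Cxcl5 and Steap4 were highest in replicate 2, C3 in replicate 3 and Hp in replicate 4 of that group. Replicate 4, next in summed immune level at 160 CPM, had the lowest Ccl2, Cxcl5 and Saa3. Cxcl1, Ccl7, Vcam1 and Cebpb were lowest in replicate 3. The part of immune cells in the inflammatory differences was not tested.

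**Figure D4:**
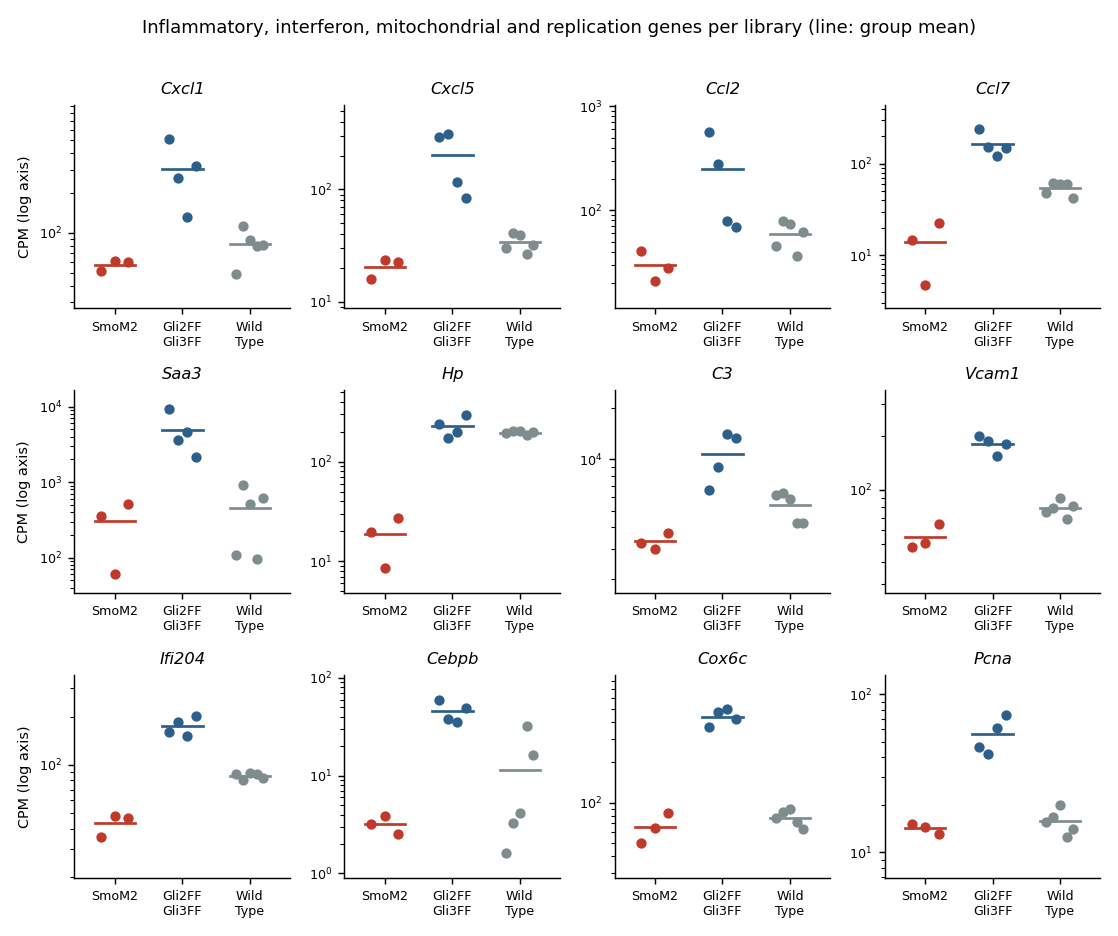
CPM on a log axis for 12 genes in each library of SmoM2 (red), Gli2FFGli3FF (blue) and wild type (grey), with a line at each group mean. All 12 are lower in every SmoM2 library than in every Gli2FFGli3FF library, and Hp of wild type sits beside Gli2FFGli3FF.

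Most genes of oxidative phosphorylation and of the ribosome were lower in SmoM2. Of 43 nuclear oxidative phosphorylation genes 30 were called lower in SmoM2 and none higher, with a median of -1.16. The cytochrome oxidase gene Cox6c was at 49.6, 64.3 and 84.04 CPM in SmoM2 and 368, 471, 496 and 417 CPM in Gli2FFGli3FF, against 63.6 to 89.4 CPM in wild type (log2 change -2.73, SE 0.29, adjusted p = 9.46e-07). Uqcrq of complex III changed by -2.62 (SE 0.31, adjusted p = 3.28e-06), Cox7a2 by -2.24 (SE 0.27, adjusted p = 5.72e-06) and the complex I gene Ndufb3 by -2.30 (SE 0.30, adjusted p = 1.21e-05). For 23 of the 30 genes the wild type median lay inside the SmoM2 range, and for the other 7 between the groups. Of 13 mitochondrially encoded genes 12 were called lower, with a median of -1.23. Among them mt-Co1, a cytochrome oxidase subunit gene, was at 1381, 1570.1 and 2369 CPM in SmoM2 and 4706, 4317, 4382 and 3262 CPM in Gli2FFGli3FF (log2 change -1.23, SE 0.26, adjusted p = 0.00257). The subunit genes mt-Nd6 and mt-Co3 changed by -1.52 (SE 0.27, adjusted p = 0.000395) and -1.17 (SE 0.25, adjusted p = 0.0028). With the covariate the changes were -0.18 for mt-Co1 (adjusted p = 0.887), -0.30 for mt-Nd6 (adjusted p = 0.726) and -0.48 for mt-Co3 (adjusted p = 0.588). The mitochondrial count was 3 without SmoM2 replicate 1, 4 without SmoM2 replicate 2 and 0 with the ribosomal RNA covariate, and the oxidative phosphorylation count was 20 without SmoM2 replicate 1 and 3 with the covariate (Cox6c, Uqcrq and Cox7a2).

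Cytosolic ribosomal protein genes had 50 of 79 called lower and 6 higher, with a median of -0.93. Rpl39 was at 117, 154 and 218 CPM in SmoM2 and 1267, 1207, 1292 and 1134 CPM in Gli2FFGli3FF, against 204 to 249 CPM in wild type (log2 change -2.91, SE 0.27, adjusted p = 1.88e-07). Rpl41 changed by -2.47 (SE 0.24, adjusted p = 2.78e-07) and Rpl24 by -2.43 (SE 0.24, adjusted p = 4.47e-07). For 43 of the 50 genes the wild type median lay between the groups. In the other direction Rps2 was at 307, 316 and 445 CPM in SmoM2 and 37.04, 30.2, 28.4 and 35.5 CPM in Gli2FFGli3FF (log2 change 3.44, SE 0.21, adjusted p = 8.06e-10), with wild type at 381 to 559.6 CPM beside SmoM2. Ribosomal protein genes have many near-identical pseudogenes and reads can be split between them, so these values are uncertain, and with the covariate 10 were called lower and 5 higher. The share of counts on the ribosomal RNA locus itself was lower in SmoM2, as given above, and its part in these counts was not tested beyond the covariate.

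Few cell cycle genes passed the test, all of them lower in SmoM2. Of 43 tested 6 were called lower and none higher, 40 had a negative change, and the median was -2.37. Called lower were 9.41% of all tested protein-coding genes and 15.98% of well-expressed ones, and 6 of 43 lies between these shares. The list was not limited to well-expressed genes. Pcna, the sliding clamp of DNA replication, was at 15.2, 14.5 and 13.03 CPM in SmoM2 and 46.8, 42.04, 61.5 and 73.7 CPM in Gli2FFGli3FF, against 12.5 to 19.9 CPM in wild type (log2 change -1.97, SE 0.28, adjusted p = 3.15e-05). Stmn1, a microtubule regulator of dividing cells, was at 0.905, 1.7 and 1.58 CPM in SmoM2 and 59.03, 26.02, 2.03 and 30.3 CPM in Gli2FFGli3FF (log2 change -4.39, SE 1.00, adjusted p = 0.00426). Rrm1, a ribonucleotide reductase subunit, changed by -1.36 (SE 0.36, adjusted p = 0.0138), with the call lost when SmoM2 replicate 1 or 2 was left out (adjusted p = 0.0557 and 0.0765) and with the covariate (-0.64, adjusted p = 0.644). The summed level of the list was 133.7, 125.9 and 129.9 CPM in SmoM2 and 748, 307, 204.6 and 496 CPM in Gli2FFGli3FF, whose summed immune marker levels were 464, 21.6, 20.9 and 160.1 CPM. Both sums were highest in Gli2FFGli3FF replicate 1 and next in replicate 4, and the part of immune cells in the cell cycle differences was not tested. The number of cell cycle genes called was 2 without SmoM2 replicate 1, 3 without SmoM2 replicate 2 and 0 with the covariate. Of 21 heat shock and chaperone genes 4 were lower and 1 higher, with the mitochondrial chaperonin genes Hspe1 at 30.5, 38.2 and 41.97 CPM in SmoM2 and 146, 102, 126 and 112 CPM in Gli2FFGli3FF (log2 change -1.72, SE 0.26, adjusted p = 6.42e-05) and Hspd1 at -1.12 (SE 0.25, adjusted p = 0.00362), both lost with the covariate, where the change of Hspe1 was -1.11 (adjusted p = 0.138). The chaperone gene called higher was not called without SmoM2 replicate 3. Of 17 retinoic acid genes 1 was higher and 2 were lower. Beside the 7.57% higher and 7.92% lower of all genes tested, these counts and the glycolysis counts below do not stand out. Tgm2, a transglutaminase that retinoic acid induces, was at 411, 447 and 361 CPM in SmoM2 and 198, 191, 231 and 220.1 CPM in Gli2FFGli3FF (log2 change 0.95, SE 0.21, adjusted p = 0.00286). Wild type Tgm2, at 93.9 to 187 CPM, lay below both groups. Of 21 glycolysis genes 1 was higher and 2 were lower, the higher one being the enolase gene Eno2 (log2 change 2.17, SE 0.33, adjusted p = 8.98e-05), also lost with the covariate. Several other small counts also moved by over 1.5 times when 1 library was left out. The count lower was 1 for retinoic acid genes without SmoM2 replicate 1 or Gli2FFGli3FF replicate 1 and 4 without Gli2FFGli3FF replicate 4, and for glycolysis genes 0 without SmoM2 replicate 1 and 1 without SmoM2 replicate 2 or Gli2FFGli3FF replicate 1, 2 or 3. It was 1 for fibrillar matrix genes without replicate 1 or 2 of either group, 1 for adventitial markers without SmoM2 replicate 1 or 2 or Gli2FFGli3FF replicate 3 or 4, 0 for proteoglycan genes without SmoM2 replicate 1 or 2, and 2 for the IGF and imprinted list without Gli2FFGli3FF replicate 3. For cilium genes it was 0 without SmoM2 replicate 1 or 2 or Gli2FFGli3FF replicate 1 and 1 without SmoM2 replicate 3 or Gli2FFGli3FF replicate 3. The cilium count higher was 0 without SmoM2 replicate 2 and 1 in the other fits but that without SmoM2 replicate 3. The count of chemokine genes called higher was 1 without SmoM2 replicate 1 or 2 or Gli2FFGli3FF replicate 1 or 3. The single acute-phase gene called higher was not called without SmoM2 replicate 3 or Gli2FFGli3FF replicate 1, 2 or 4, and the single interferon-stimulated gene without SmoM2 replicate 1 or 3 or Gli2FFGli3FF replicate 1, 2 or 4.

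**Figure D5:**
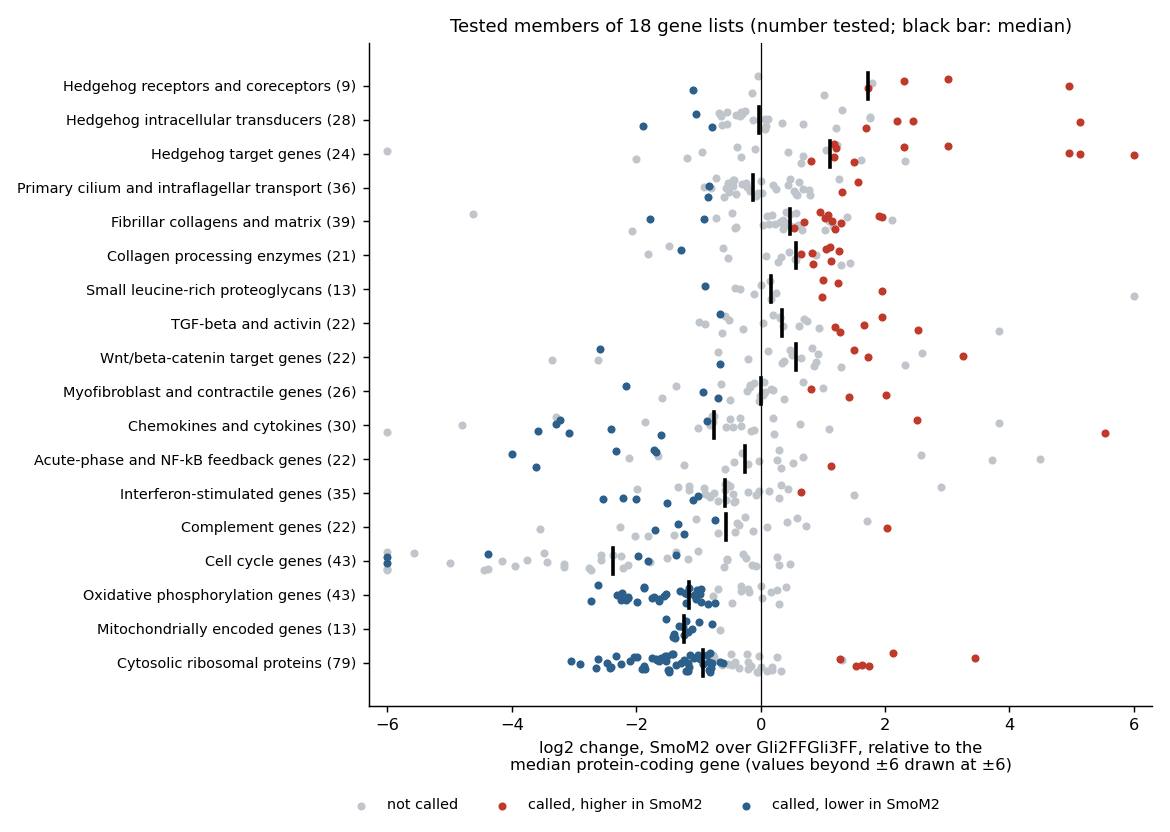
Log2 change of SmoM2 over Gli2FFGli3FF, relative to the median protein-coding gene, for the tested members of 18 gene lists, with calls in red (higher) and blue (lower) and a black bar at each median. The Hedgehog receptor and target medians lie at 1.72 and 1.12, the fibrillar matrix, collagen processing and proteoglycan medians between 0.17 and 0.57, and the oxidative phosphorylation, mitochondrial, ribosomal and cell cycle medians at -0.93 or below.

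Markers of other cell types were detected in both groups. Of the 16 tested smooth muscle and pericyte markers none was called, with a summed level of 347 to 409 CPM in SmoM2 and 323 to 552 CPM in Gli2FFGli3FF, and none of 10 endothelial markers (50.8 to 65.6 and 27.1 to 56.2 CPM) nor of 5 hepatocyte markers (164 to 204 and 74.0 to 150.1 CPM). The smooth muscle myosin gene Myh11 was at 4.16, 18.4 and 8.37 CPM in SmoM2 and 0.0675, 79.96, 74.8 and 59.3 CPM in Gli2FFGli3FF. Among 14 mesothelial markers 2 were called higher, with summed levels of 331 to 993 CPM in SmoM2 and 663 to 1077 CPM in Gli2FFGli3FF. The members called were Muc16, at 13.6, 45.96 and 59.4 CPM in SmoM2 and 3.24, 2.57, 0 and 2.85 CPM in Gli2FFGli3FF, and Krt19, at 10.1, 49.05 and 43.8 CPM in SmoM2 and 5.53, 9.29, 3.25 and 12.4 CPM in Gli2FFGli3FF, both low in SmoM2 replicate 1. Krt19 is also the 1 cholangiocyte marker called of 16 tested. The Muc16 call ended in every fit that left out 1 library and the Krt19 call in 5 of the 7. The part of these cells in the results was not tested.

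Transcripts outside coding genes also differed between the groups. Over all genes tested 7.57% were called higher and 7.92% lower. Entries were kept for testing by their counts over all 23 Pdgfra libraries, so an entry could pass while absent from Gli2FFGli3FF. Entries annotated TEC, which mark unverified transcripts, had 225 of 1592 called higher and 2 lower, with a median log2 change of 3.95. Detected TEC entries numbered 797 to 1821 per SmoM2 library and 280 to 633 per Gli2FFGli3FF library. The medians of such classes thus rest on many values at 0 and do not measure a fold. Antisense entries had 129 of 1317 called higher and 6 lower, with a median of 2.9997, and sense-intronic entries 35 of 199 higher and none lower, with a median of 4.43. Entries annotated as rRNA had 25 of 62 called lower and 1 higher, with a median of -3.33, and the miscellaneous RNA class 10 of 60 lower and 1 higher, with a median of 2.84. Together the TEC, antisense and sense-intronic classes took 0.228 to 0.829% of counts in SmoM2 and 0.0954 to 0.142% in Gli2FFGli3FF, against 0.144 to 0.606% in wild type, which overlapped SmoM2. In SmoM2 replicates 1 to 3 the TEC share was 0.474, 0.313 and 0.098%, at ribosomal RNA shares of 11.99, 17.2 and 22.6%. In wild type it was 0.0504% in replicate 2 and 0.336% in replicate 5, at ribosomal RNA shares of 29.4 and 13.4%. The part of the ribosomal RNA share in these classes was not tested. Such entries overlap genes, and without knowledge of the strand used in counting their reads cannot be told apart from those of the genes around them.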

How the data were processed

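RNA was measured in sorted bile duct cells, with about 1000 cells per animal made into a full-length cDNA library of the Smart-seq3 type, per the labels' protocols. The authors deposited raw counts per gene. Per the submitters' processing notes, reads were placed on mm10. Which aligner, counter and annotation were used, and whether strand was, is not given in the sources used. Molecular identifiers were not counted, so reads of 1 molecule may be repeated. The tables hold 55401 entries with 55291 distinct symbols, of which 53292 were matched to GENCODE M21 (GRCm38) for biotypes and coordinates. The ribosomal RNA locus stayed in the library sizes.

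Counts of the 23 Pdgfra libraries were fitted together in R 4.3.3 with edgeR 4.0.16 (TMM scaling after filterByExpr, quasi-likelihood test, Benjamini-Hochberg adjustment over all tested genes), so that all groups share 1 estimate of the spread. The factors of each group were then shifted so that the median tested protein-coding gene had a log2 change of 0 against Gli2FFGli3FF. CPM are counts scaled to these effective library sizes and were not corrected for gene length, so levels are compared within a gene. Each library was taken as 1 animal, and p-values measure the spread between libraries. Tests on simulated data covered 22886 genes of the SmoM2 against Gli2FFGli3FF comparison. They recovered 10% of 100 genes changed 2-fold and 57% of 100 changed 4-fold, with 1 false call. The genes changed there were far fewer than the 3777 called in the data. How these values carry over to the real libraries, which differ in RNA makeup, was not tested.

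Named genes are the Hedgehog lists, up to 12 called protein-coding genes per direction with the largest changes where the groups did not overlap and log2 CPM averaged 3 or more, and up to 4 called members per gene list by p, of which some are not reported here. Some genes named for levels only (Pdgfra, Col3a1, Dcn, Acta2, Myh11, Lyz2, Adgre1, Ptprc) were chosen after their values were seen. The comparison, its 50 gene lists and its tests were chosen with earlier results of these data known. Alternatives used limma 3.58.1 and DESeq2 1.42.0 and other scalings, filters, covariates and library sets. Gli1-lineage libraries of the series were not used here.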

Additional observations from a re-analysis of the deposited data

Results flagged for a closer look

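In 106 gene and group combinations tested in Gli2FFGli3FF, 3 had 1 library apart from the others of its group by Dixon's criterion, which chance reaches in about 1 in 20 groups. Ccnd2 was at 70.4 CPM in Gli2FFGli3FF replicate 1 and at 35.1 to 40.02 CPM in the other 3 libraries of that group. Twist1 was at 29.1 CPM in Gli2FFGli3FF replicate 1 and at 10.6 to 13.3 CPM in the others. Scube1 was at 0.0378 CPM, 1 count, in Gli2FFGli3FF replicate 2 and at 0 in the others.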

How the results depend on the processing

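Of 22 alternatives, none gave a gene called in the direction opposite to the 3777 main calls (1846 higher, 1931 lower). limma voom with quality weights called 4690 higher and 3466 lower, and a fit of protein-coding genes only called 918 higher, in which fewer genes were tested. The ribosomal RNA share as a covariate left 364 higher and 336 lower, of which 573 are among the main calls. Against Gli2FFGli3FF replicate 4 alone, an alternative chosen after seeing the data in which the lone library is assumed to vary like the other groups, 91 were higher and 662 lower. The cause was not tested. Leaving out 1 library at a time gave 1015 to 1378 higher and 1039 to 1802 lower, with the lowest numbers without SmoM2 replicate 1, and fewer samples entered each fit. Of the 99 genes whose calls are described, 39 kept their call with the covariate and 39 against replicate 4 alone, and at most 8 lost it in any other fit.

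Groups share replicate numbers in the labels. Over 9621 genes the deviations of same-numbered libraries correlated at -0.129, 0.122 and 0.071, and those of differently numbered libraries at -0.131 to 0.179. Same-numbered libraries were thus no more alike than others. With so few libraries this does not settle whether the numbers pair the samples. With the replicate number as a block 1327 genes were higher and 2047 lower, and of the 99 described calls Foxf1 (adjusted p = 0.0656) and Ccnd2 (adjusted p = 0.147) were not made. Calls rest on 3 and 4 libraries, and at this depth genes of a few CPM give few counts.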
